A study of Drosophila melanogaster with 2 samples.

Results

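The cytoplasmic ribosomal protein genes of Drosophila melanogaster were examined for promoter peaks of Dmrt99B, a DNA-binding protein related to Doublesex, in data from chromatin immunoprecipitation with sequencing (ChIP-seq). Members were all protein-coding genes whose symbol begins with RpL or RpS followed by a number or a P, which gave 92 of 13945 protein-coding genes on the 6 chromosome arms (2L, 2R, 3L, 3R, 4 and X). Of these, 54 encode proteins of the large subunit and 38 of the small subunit, counting 5 genes with names ending in -like among them. All libraries formed 1 group, with the biological replicates 3 and 4 of whole embryos of mixed sex, aged 6 to 16 hours. The embryos came from a transgenic line with eGFP fused to the C-terminal end of dmrt99B. Precipitation is described in the labels as anti-GFP, although dmrt99B is what they enter as the antibody, and both replicates came from the same line. No control library or second genotype was analysed here, so no effect could be compared between groups. Signal from a whole embryo mixes all its cell types, and stronger binding in few cells cannot be told apart from weaker binding in many.

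Ribosomal proteins assemble with ribosomal RNA into the small subunit, which decodes the messenger RNA, and the large subunit, which forms peptide bonds. The subunits need their proteins in matched amounts, and in flies loss of a single copy of many of these genes gives the Minute phenotype of slow development and thin bristles. Transcription of most fly ribosomal protein genes starts in a run of pyrimidines known as the TCT sequence in place of the usual initiator. Other short sequences described at such promoters are the DRE, which is bound by Dref, and motif 1, which is bound by M1BP.

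The authors' strictest list holds peaks kept by their irreproducible discovery rate (IDR) filter, which compares peak ranks of replicates. In it 54 of the 92 genes had a summit within 1000 bp of a transcription start site (TSS), and these are called bound here. This was 58.7% of them (95% Wilson interval 48.5% to 68.2%), where 20.1% of all protein-coding genes met the same criterion. A further 6 genes had only a weaker summit, from the relaxed list of both replicates pooled, and 32 had no summit within 1000 bp in either list. Most of the summits lay on the start sites. Of the 54 bound genes, 41 had their nearest summit within 50 bp of a TSS (75.9%, Wilson interval 63.1% to 85.4%), as did 250 of the 2752 other bound genes (9.08%, 8.07% to 10.2%). Over all protein-coding genes, bound or not, 2.09% had an IDR summit that close. Intervals cover counting error over genes only. Genes are not replicates and the gene list was chosen with earlier results known, so no test was made over it. No source used here gives read totals, and the depth behind each peak is unknown.

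The sequence around the start site is shown for 8 of the bound genes with the highest peak signal, because most summits of bound genes fell on or just upstream of it. Each line gives 26 bases of the gene's own strand in dm6 coordinates, with the annotated TSS as base 12. Capitals mark TCTTT or CCTTT, the short form of the TCT sequence that was searched.
RpL34b, chr3R:9401188-9401213, minus strand: tagtttcgtcTCTTTgaggtatgcac
RpS27, chr3R:25247458-25247483, minus strand: gatttaccccacttCCTTTtccgtgt
RpL14, chr3L:8600995-8601020, plus strand: caaaaaagtTCTTTccttctctttct
RpL7, chr2L:10201089-10201114, plus strand: agcacgtttccggTCTTTctttccct
RpS25, chr3R:11216273-11216298, minus strand: gtttccgccctccaTCTTTctgcatt
RpL34a, chr3R:26059253-26059278, minus strand: tccagctctagcttctcttcttcctt
RpL32, chr3R:30046147-30046172, minus strand: accaccagcttttTCTTTtcgcttct
RpL13, chr2L:9967319-9967344, plus strand: ggttgcgatttCCTTTttaattcgtt
RpL34a was the exception among these 8, with a pyrimidine-rich start but no match whose C lay within 10 bp of the TSS. Where a gene has several annotated starts, the start closest to a match is shown, so for RpL34b, RpS27, RpL13 and, further on, RpS10b it is not the start nearest to the summit.

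Such a match, with its C within 10 bp of a TSS, was found in 75 of the 92 genes (81.5%) and in 5.85% of the other protein-coding genes. In 55 of the 75 genes the C lay 2 to 6 bases downstream of the annotated start, with a median of 4. Among the ribosomal protein genes, 48 of 75 with the match were bound (64.0%, Wilson interval 52.7% to 73.9%), and 6 of 17 without it (35.3%, 17.3% to 58.7%). These 2 intervals overlap. Among the other protein-coding genes, 28.8% of the 810 with a match were bound and 19.3% of those without one. Outside the ribosomal protein genes, most bound genes with the match had summits away from the start. The 233 other bound genes with a match had a median summit position of -170 bp, against -171 bp for those without one, and 14.6% of them had a summit within 50 bp of the TSS, against 8.57%.

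The median summit position was -21 bp (quartiles -47.8 and 5.2 bp, negative values being upstream) at the 54 bound ribosomal protein genes and -170.5 bp (-306 and -53 bp) at the 2752 other bound genes. Of the 13 bound ribosomal protein genes with a summit farther than 50 bp from the start, 12 had it upstream. The position recurred in each replicate. In the 7838 strongest peaks of each, as many as the IDR list holds, the median position was -23.5 bp in replicate 3 and -21.5 bp in replicate 4 for ribosomal protein genes, and -168 bp and -162 bp for other genes. In the same lists 54 of 92 ribosomal protein genes had a summit within 1000 bp of a TSS in replicate 3, where 20.5% of all protein-coding genes did, and 62 of 92 in replicate 4, where 22.2% did. At 44 of 50 bound ribosomal protein genes with a promoter summit in both lists, the replicates' summits lay within 50 bp of each other. Their median gap was 16.5 bp. Among other bound genes the same held for 1866 of 2451 (76.1%), with a median gap of 22 bp. Over all genes, bound or not, 47.8% of ribosomal protein genes and 26.4% of others had several annotated starts, which shortens the distance to the nearest. Among bound genes whose own start was the nearest protein-coding start to the summit, the shares were 52.0% and 54.6%. Among bound genes with a single annotated start, the median was -31 bp for 27 ribosomal protein genes and -178 bp for other genes. With the Ensembl canonical transcript alone it was -26.5 bp and -173 bp.

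**Figure D1:**
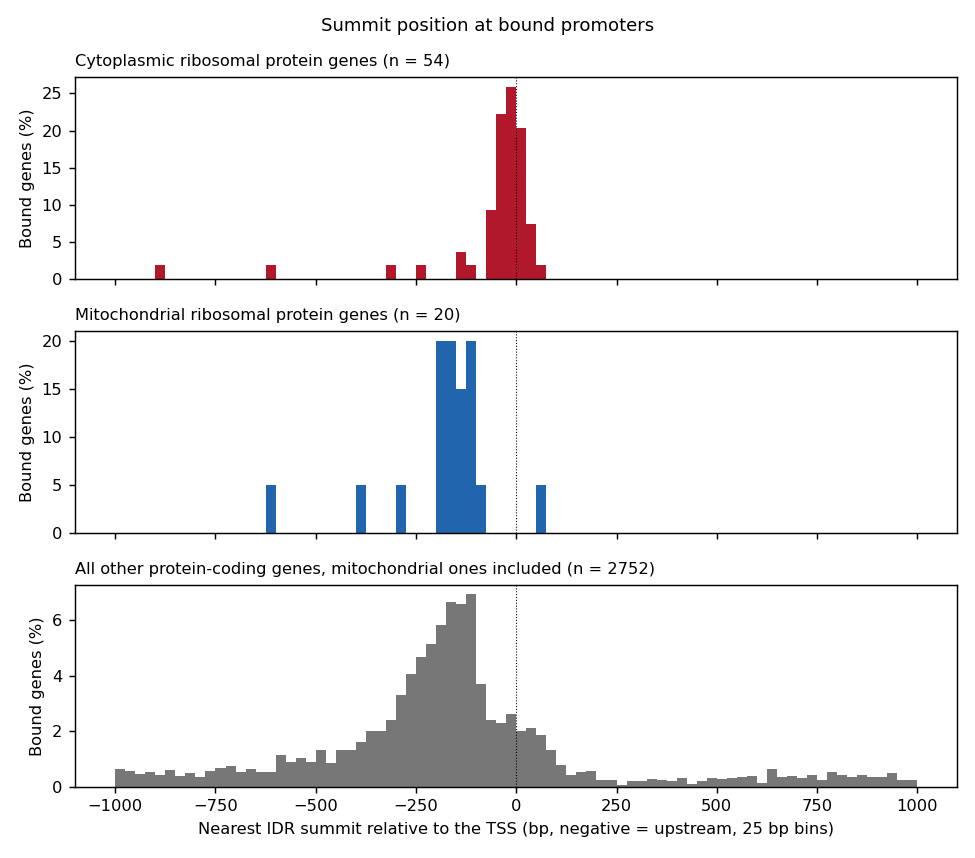
Position of the nearest IDR summit relative to the TSS (x axis, bp, 25 bp bins) as a percentage of bound genes (y axis, scaled for each panel), for 54 cytoplasmic ribosomal protein genes, 20 mitochondrial ones and 2752 other protein-coding genes, mitochondrial ones included. The medians are -21, -157 and -170.5 bp, and the cytoplasmic genes form a narrow group at the start site.

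Mitochondrial ribosomal protein genes, whose products form the separate ribosome of that organelle, had summits farther upstream. Of 73 such genes 20 were bound (27.4%, Wilson interval 18.5% to 38.6%), with a median position of -157 bp (quartiles -190 and -124.5 bp). None of the 20 had a summit within 50 bp of a TSS, which allows a share of up to 16.1% by the upper Wilson bound. For only 12 of the 20 (60.0%) was the gene's own start the nearest protein-coding start to the summit. Another gene's start lay within 1000 bp for 82.2% of the 73 genes, so some of these summits may belong to neighbours. Translation initiation factor genes were bound in 7 of 44 cases (15.9%, Wilson interval 7.93% to 29.4%), again with none of the 7 within 50 bp. Translation elongation factor genes, which were few, had summits near the start. Of 7 listed, 4 were bound, with the summit of eEF1gamma 15 bp (signal value 1165), that of eEF5 20 bp (364) and that of eEF1alpha1 88 bp (405) upstream, and that of eEF2 19 bp (367) downstream. The ribosome component sta had a summit 48 bp downstream of its start (signal value 336), while the nearest IDR summit to Rack1 lay 1086 bp away. Of 8 genes for snoRNA-protein particles and ribosomal RNA processing, 2 were bound, bys at 575 bp and hoip at 529 bp upstream. In neither case was the gene's own start the nearest protein-coding start to the summit. The value at bys (213) was also that of the summit at its neighbour RpS6, 26 bp downstream of the RpS6 start.

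**Figure D2:**
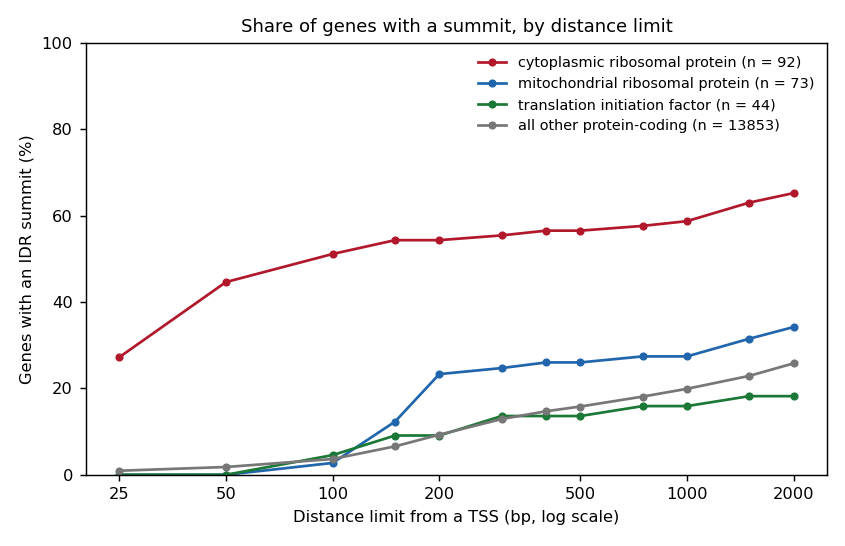
Percentage of genes with an IDR summit (y axis) within each distance limit from a TSS (x axis, bp, log scale), for 4 gene groups. Cytoplasmic ribosomal protein genes reach 44.6% at 50 bp and 58.7% at 1000 bp, while mitochondrial ones stay at 0 to 50 bp and reach 23.3% by 200 bp.

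The bound shares of the 2 subunits had widely overlapping intervals. Of the large subunit genes 32 of 54 were bound (59.3%, Wilson interval 46.0% to 71.3%), and of the small subunit genes 22 of 38 (57.9%, 42.2% to 72.1%). The median summit position was -26.5 bp (quartiles -54 and 3 bp) for the large and -10.5 bp (-31 and 5.2 bp) for the small subunit. Both had most summits within 50 bp of a TSS, 23 of 32 and 18 of 22. The signal value, a score per peak made by the authors on a scale that is not stated, had a median of 521 (range 254 to 1304) in the large subunit and 393 (189 to 1276) in the small. With the 3919 IDR peaks of highest signal value, 27 of 54 large subunit genes and 14 of 38 small subunit genes (36.8%) were bound. By the same peaks 13.0% of the other protein-coding genes were bound. Neither difference between the subunits was tested.

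Of the large subunit, RpL34b had the strongest peak, with a signal value of 1304 in the IDR list, 899 in replicate 3 and 400 in replicate 4, at 121 bp upstream of its start. Only this large subunit gene exceeded 1000. The ribosomal stalk genes RpLP0, RpLP1 and RpLP2, whose products recruit elongation factors, had IDR values of 767, 409 and 271, with summits 30, 47 and 60 bp upstream. RpL14 had 952 in the IDR list, with its summit 27 bp upstream, but 29.9 in replicate 3 (rank 29371 of 30000), from a summit 198 bp away, and 321 in replicate 4 (rank 897). RpL7 had 872 in the IDR list, 619 in replicate 3 and 248 in replicate 4, 45 bp upstream. RpL19 had 834, 560 and 278 in the same lists, 10 bp upstream, and RpL34a 802, 528 and 269, 39 bp upstream. RpL32 (796, 541 and 252, 126 bp upstream) lay farther from its start than most, and RpL13 (784, 539 and 238) had its summit 54 bp upstream. At RpL13 the summit was closer to the start of its divergent neighbour Dref, the gene of the DRE-binding factor, at 30 bp from that start. RpL38 (254, 26 bp downstream) was the weakest of the bound large subunit genes.

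Of the small subunit, RpS27 had the strongest peak, with 1276 in the IDR list, 868 in replicate 3 and 396 in replicate 4, 19 bp upstream of its start. It was the only small subunit gene above 1000. RpS25 had 808 in the IDR list, 553 in replicate 3 and 256 in replicate 4, 49 bp upstream, and RpS10b 769, 512 and 256, 23 bp upstream. RpS20 had 759, 533 and 222 in the same lists, 141 bp upstream, and RpS4 678, 476 and 212, 2 bp upstream. RpS7 had 604, 435 and 159, 6 bp downstream, and RpS21 562, 377 and 183, 11 bp upstream. RpS19b (594, 397 and 196) was set apart by its distance of 889 bp. The gene RpS6, whose product is the classical substrate of the S6 kinase, was bound more weakly, with 213 in the IDR list, 141 in replicate 3 and 74.9 in replicate 4, 26 bp downstream. RpS3A, the only member on chromosome 4, had 416 in the IDR list, 307 in replicate 3 and 125 in replicate 4, with its summit 46 bp upstream of the start at 67207. Its start site also held the match.
RpS3A, chr4:67193-67218, minus strand: tcaacgtgattcgaCCTTTtccggtt
A peak of each replicate lay within 200 bp of the summit at all 54 bound genes. The IDR filter compares the replicates, so such agreement follows largely from how its list was made. On scales that differ between the lists, values at these summits ran from 29.9 to 899 in replicate 3 (median 323) and from 43.2 to 400 in replicate 4 (median 150).

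**Figure D3:**
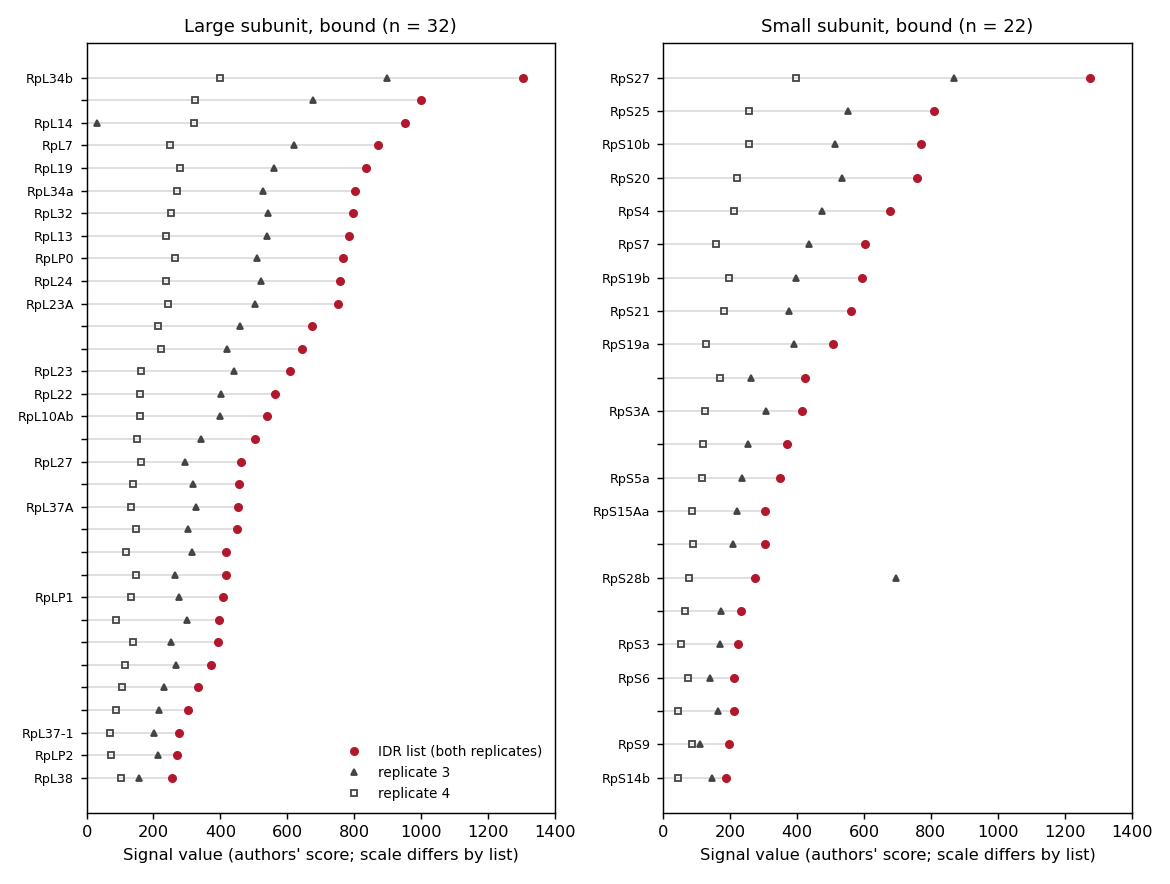
Signal value (x axis, the authors' score, whose scale differs between lists) of the nearest IDR summit at each bound gene of the large subunit (left, 32 genes) and small subunit (right, 22 genes), with the nearest summit within 200 bp in each replicate, and with names at genes described in the text. RpL34b (1304) and RpS27 (1276) lead, and RpL14 has a replicate 3 value of 29.9 beside a replicate 4 value of 321.

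The signal values were moderate among bound promoters. The median over the 54 genes was 459 (quartiles 338 and 756), and over the 2752 other bound genes 425 (246 and 883). The order of these medians depended on the peaks counted. With the 3919 strongest IDR peaks they were 604 and 763, and with the strongest summit within 1000 bp in place of the nearest 482 and 501. Only 2 ribosomal protein genes (3.7%) had a value above 1000, compared with 610 of the other bound genes (22.2%). The median ribosomal protein gene lay at percentile 53.4 of the other bound promoters, and RpL34b, the highest, at percentile 84.0 and rank 694 of the IDR list. With the strongest summit in place of the nearest, RpS28b also exceeded 1000, with 1040 at a position of -805 bp.

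Members near the limits of the criterion were few. The bound genes with the lowest values were RpS14b (189) and RpS9 (198), where the IDR list began at 169. Among the 6 genes with only a pooled relaxed summit, the highest values were 148 at RpS28-like, 108 at RpS13 and 86.8 at RpS10a, and the others were RpLP0-like (73.2), RpL26 (60.7) and RpL40 (49.0). With these 6, 60 of 92 genes had a pooled summit, where 33.9% of all protein-coding genes did. By distance to the IDR summit, the outermost bound genes were RpS19b (889 bp), RpS28b (606 bp) and RpL23 (321 bp). The nearest beyond the limit were RpS14a (1128 bp), RpLP0-like (1198 bp) and RpL13A (1298 bp). RpL23 also had a summit 1 bp from its start in the pooled relaxed list, with a value of 152. At RpL13, RpL23, RpS19b and RpS28b the IDR summit was nearer to the TSS of another protein-coding gene (Dref, CG13531, CG5854 and l(1)G0320). For the other 50 (92.6%) the gene's own start was the nearest, as for 78.5% of other bound genes.

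Gene starts were crowded around these genes, and summits were still at their own starts where no neighbour was near. A start of another gene of any kind lay within 1000 bp of a TSS for 78.3% of ribosomal protein genes and for 51.3% of other protein-coding genes. Of the 20 without such a neighbour, 9 were bound (45.0%, Wilson interval 25.8% to 65.8%), where 16.0% of all protein-coding genes without one were. In the 9, namely RpL23A, RpL24, RpL27, RpL37-1, RpL38, RpLP2, RpS10b, RpS3 and RpS3A, the median position was -25 bp and 7 summits lay within 50 bp. With the 3919 strongest IDR peaks 5 of these 20 were bound, against 9.54% of other protein-coding genes without such a neighbour. When only protein-coding neighbours were considered, 19 of 34 genes were bound (55.9%), against 16.6% of other genes. Among the 28 members whose span holds a snoRNA gene on the same strand, a class of RNA known to guide modification of ribosomal RNA, 19 were bound (67.9%, Wilson interval 49.3% to 82.1%), and among the other 64, 35 (54.7%, 42.6% to 66.3%).

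Paralogues differed within nearly every set. In 13 sets of 27 genes that share a protein or a -like relative, each set had at least 1 bound gene, and 11 had exactly 1. No set had more than 1 gene with an IDR summit within 50 bp of its start. In the sets 15 of 27 genes (55.6%) were bound, and outside them 39 of 65 members (60.0%). RpS5a had 350 in the IDR list, 236 in replicate 3 and 116 in replicate 4 with its summit 32 bp upstream, and RpS5b, expressed mainly in the female germline, had no pooled summit within 1000 bp. RpS10b had 769 at 23 bp upstream, and RpS10a, a copy with germline-biased expression, only a relaxed pooled summit of 86.8 at 80 bp. RpS19a had 507, 392 and 127 in these lists at 3 bp downstream, and the summit assigned to RpS19b, a germline copy, lay 889 bp upstream beside CG5854. RpL22 had 562, 402 and 160 at 48 bp upstream, and RpL22-like, a copy enriched in the male germline, had none within 1000 bp. RpS15Aa (304, 10 bp upstream), RpL37-1 (276, 26 bp), RpL24 (758, 7 bp downstream), RpL7 (872, 45 bp upstream), RpL10Ab (539, 227 bp) and RpLP0 (767, 30 bp) were bound, while RpS15Ab, RpL37-2, RpL24-like, RpL7-like and RpL10Aa had no pooled summit within 1000 bp and RpLP0-like only a relaxed one. RpL34b and RpL34a were both bound. Of the tandem genes RpS14a and RpS14b, RpS14b had a summit 28 bp upstream (189). It lay 1128 bp from the start of RpS14a, which had no pooled summit within 1000 bp. In replicate 3, however, RpS14a had a summit 42 bp upstream with a value of 249, where RpS14b had 147. RpS28b was assigned summits at -606 and -805 bp, the nearer one beside l(1)G0320, RpS28-like a relaxed one of 148 at 635 bp downstream, and RpS28a none. Genes whose symbols differ by a capital A only, such as RpL7 and RpL7A, encode unrelated proteins. Of 9 such A genes, 6 were bound, where 58.7% of all members were.

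**Figure D4:**
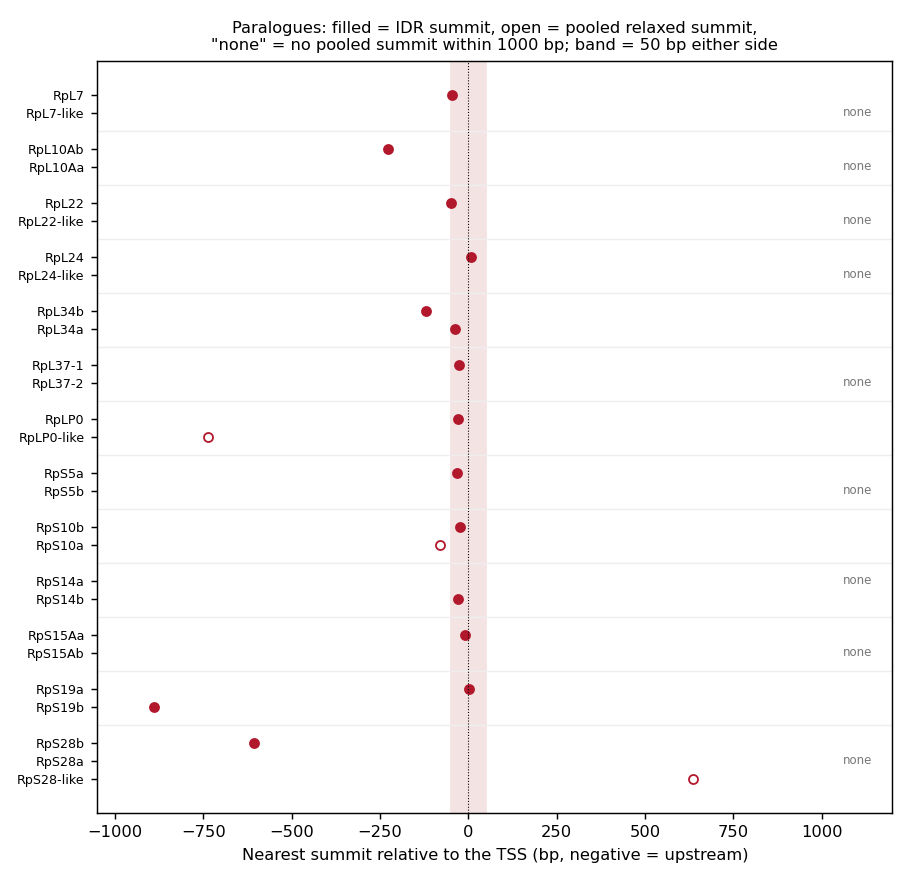
Position of the nearest summit relative to the TSS (x axis, bp) for the 27 genes of 13 paralogue sets, with filled circles for IDR summits, open circles for relaxed pooled summits and the word none where neither list had a summit within 1000 bp. The shaded band spans 50 bp to either side of the TSS and holds at most 1 gene of each set.

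Start-site sequences of 5 pairs and of RpL7-like are given as examples, because the letters of copies whose summits differed could be compared. In each pair the copy with the summit at or nearest to its start comes first. That summit lay 227 bp upstream at RpL10Ab and 606 bp upstream at RpS28b, so neither of these copies had it at the start.
RpS5a, chrX:17148250-17148275, minus strand: ctgccgtaacatgtTCTTTttcaggc
RpS5b, chr3R:14901549-14901574, minus strand: ccttttaccgttTCTTTttcatcctc
RpS10b, chrX:19598029-19598054, plus strand: ttgtcatcccttccgtttcCCTTTct
RpS10a, chr3R:27652749-27652774, plus strand: tttcggtaaatactaatttaagctgg
RpS19a, chrX:16637883-16637908, plus strand: cttcacgcgccttgtTCTTTtttccg
RpS19b, chr3R:23933516-23933541, minus strand: gccaatcgtccattttgactaaagtc
RpL10Ab, chr3L:11822840-11822865, plus strand: aaaccgattttcacttCCTTTctaaa
RpL10Aa, chr3R:15037355-15037380, plus strand: atacatttcaaattttgtgcttgtag
RpS28b, chrX:9554612-9554637, plus strand: gccgataaccgctcaacttCCTTTtt
RpS28a, chr3R:30022634-30022659, minus strand: cactcacagcttcaaattcaaatctt
RpL7-like, chr2L:12056337-12056362, plus strand: cgcgcccacctctatCCTTTttagtt
RpS10a, RpS19b, RpL10Aa and RpS28a lacked the match that their bound relatives carry, while RpS5b and RpL7-like held it and had no pooled summit. A match is a description of these letters and not of their use.

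Among other sequences, searched on both strands from 250 bases before to 50 bases from each TSS, the DRE (TATCGATA) was found in 28 of the 92 genes (30.4%) and in 1389 of 13853 other protein-coding genes. It was present in 14 of the 54 bound and 14 of the 38 unbound members. M1BP motif 1 (GGTCACACT) was found in 10 of the 92 genes (10.9%) and in 6.75% of other genes, and all 10 of these ribosomal protein genes were bound (Wilson interval for the bound share 72.2% to 100%), against 44 of the 82 without it (53.7%). Of the other protein-coding genes with motif 1, 24.3% were bound. The E-box CACGTG was present in 15 genes (16.3%, against 5.23% of other genes), 13 of the large and 2 of the small subunit. Of these 15, 6 were bound (40.0%, Wilson interval 19.8% to 64.3%), and of the 77 members without it 48 (62.3%, 51.2% to 72.3%). TATAAA was present in 51.1% of members (against 51.2%). GAGAG was found in 20.7% of all ribosomal protein genes and in 36.4% of all other genes. Among bound genes the shares were 20.4% and 53.0%.

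Examples follow from 8 bound genes, with the motif in capitals on the gene's own strand. The first 4 hold the DRE and the last 4 motif 1, which at RpL7 and RpL27 lies as its reverse complement.
RpS25, chr3R:11216329-11216355, minus strand: accaccaacTATCGATAggcaggcgag
RpL34a, chr3R:26059471-26059497, minus strand: tcaacaggcTATCGATAagtttaagta
RpS10b, chrX:19597945-19597971, plus strand: ttaagataaTATCGATAtattgccggc
RpS7, chr3R:30209010-30209036, minus strand: ctgcaactgTATCGATAgtatcgcaca
RpL7, chr2L:10200980-10201006, plus strand: tccgcggccAGTGTGACCgtttggccg
RpLP0, chr3L:22076056-22076082, plus strand: catcgaagcGGTCACACTgggtgccgc
RpL27, chr3R:25685151-25685177, minus strand: acttgtgccAGTGTGACCagatagtag
RpL37A, chr2L:5070981-5071007, plus strand: tcgagcggcGGTCACACTtttcgctct
The first base of the motif lay 59, 221, 77 and 85 bp upstream of the TSS for the DRE, and 111, 27, 117 and 10 bp upstream for motif 1.

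Sequence content was also counted within 201 bp centred on each summit. DRE was present at 13 of 54 summits (24.1%, Wilson interval 14.6% to 36.9%) and at 3.14% of 2167 summits of other bound genes, and motif 1 at 9 (16.7%, 9.02% to 28.7%) and 1.2%. The E-box was present at 5 (9.26%, 4.02% to 19.9%) and 1.71%. GAGAG was present at 5 (9.26%, 4.02% to 19.9%) and 22.4%, TATAAA at 11 (20.4%, 11.8% to 32.9%) and 39.7%. CAGTGTA was present at 0 of 54 summits, which allows a share of up to 6.64% by the upper Wilson bound, and at 5.12% of the others, so a difference was not detectable. The core sequence of DM-domain proteins, ACAATGT or its complement ACATTGT, was present at 1 of 54 summits (1.85%, 0.328% to 9.77%) and at 3.51% of the others. Summit windows of ribosomal protein genes had a GC content of 41.5% ± 6.84 (SD over 54 windows), those of other bound genes 34.6% ± 8.56 (SD over 2167 windows). The part of base composition, and of the distance from the start site, in these shares was not tested.

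Unbound members were spread over both subunits and over the arms. Bound shares were 8 of 19 on 2L, 10 of 21 on 2R, 10 of 14 on 3L, 14 of 23 on 3R, 1 of 1 on chromosome 4 and 11 of 14 on X. The Wilson intervals for 2L (23.1% to 63.7%) and X (52.4% to 92.4%) overlap. Shares of all protein-coding genes on each arm were not computed, so a difference between arms cannot be read from these counts. No peak list held a summit within 1000 bp of 21 members, 15 of which carried the TCT match. They included RpL6, RpL7-like, RpL9, RpL10, RpL10Aa, RpL21, RpL22-like, RpL24-like, RpL29, RpL36, RpL36A, RpL37-2, RpL41, RpS5b, RpS15Ab, RpS24, RpS26, RpS27A, RpS28a and RpS30. Among them RpL36A, RpL9 and RpS27A, whose product is made as a fusion with ubiquitin, lay 7.93, 17.9 and 20.3 kb from the nearest pooled summit. For 4 members no pooled summit lay within 50 kb. These were RpL21 (2L from 22247111 to 22247875, 71.6 kb away), RpL5 (2L from 22532279 to 22536884, 360 kb), RpL10 (3L from 23093190 to 23095471, 150 kb) and RpL15 (3L from 27267255 to 27268445, 183 kb). Of these, RpL5 and RpL15 did have a summit at their start in the relaxed list of replicate 4, with signal values of 52.7 (31 bp downstream) and 39.4 (9 bp upstream).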

How the data were processed

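Peak lists of ChIP-seq for Dmrt99B-eGFP in embryos, 1 group of 2 replicates, were used as deposited, in dm6 coordinates. Per the deposited text files, relaxed lists (30000 peaks each) were made from each replicate and from both pooled, and the IDR list (7838 peaks) from these 3. No source used here names the aligner or peak caller. The deposited signal value is a score per peak by the authors' caller, compared only within a list. The deposited −log10 q values share a top value and were not used. Summit positions are the deposited peak start plus the deposited offset.

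Starts of all annotated transcripts came from Ensembl release 115, sequence from the RefSeq copy of release 6 of the genome; no peak ended beyond an arm. Each gene was given the nearest summit within 1000 bp of any TSS, from the IDR list, otherwise from the pooled list. Shares carry Wilson intervals. Members, lists and motifs were chosen with earlier results of these data known. All members were classed. Sequences on arm 2R are not printed, and some genes are not reported here by name. Members named with values were the 8 strongest of each subunit, paralogues, genes nearest to the limits, that on chromosome 4 and those without a summit, with RpL38, RpLP1, RpLP2, RpS6 and the examples of motifs and of lone starts added after their values were seen. Genes that differ by a capital A encode unrelated proteins and were not paired. Of the growth control genes (Myc, S6k, Thor, Rheb and raptor found, Tor not found by symbol) 1 of 5 was bound, and of the core promoter factors (M1BP, Dref, Trf2 and Trl) 3 of 4. Summit assignment was tested on simulated data. Tables were made with pandas 2.3.3 and numpy 2.4.6 under Python 3.11.15, intervals with scipy 1.17.1, and plots with matplotlib 3.10.9. Alternatives were other distances, a stricter peak set, each replicate alone, other starts and other windows.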

Additional observations from a re-analysis of the deposited data

Results flagged for a closer look

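For 9 ribosomal protein genes, no pooled summit lay within 1000 bp of a TSS although a replicate had a summit there among their 7838 strongest peaks. They were singled out because these peaks are in lists outside the pooled and IDR lists that the counts rest on. RpS14a had it only in replicate 3, 42 bp upstream (signal value 249, rank 3912). A further 7 had it only in replicate 4, namely RpL13A (223, 47 bp upstream), RpS16 (162, 84 bp upstream), RpS18 (113, 31 bp downstream), RpL28 (97.7, 280 bp upstream), RpL35 (92.3, 4 bp downstream), RpS2 (81.1, 32 bp downstream) and RpL5 (52.7, 31 bp downstream). Of all ribosomal protein genes with such a summit in replicate 4, 8 of 62 (12.9%) had no pooled summit, as did 10.1% of the other protein-coding genes with one. In replicate 3 the shares were 2 of 54 (3.7%) and 3.77%. The cause was not tested.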

How the results depend on the processing

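Of 43 alternative values for 8 results, 12 moved by more than the limit. The limit was 1.5 times for a count and 1 SD between replicates for a median. Only the median position could change sign, and it stayed negative. The order of the median signal values changed, from 459 against 425 at other bound genes to 604 against 763 with the stricter peaks. The count of 54 bound ribosomal protein genes stayed between 41 and 62 (44.6% to 67.4% of members). Over the same settings the share of other protein-coding genes ran from 8.33% to 33.7%, where it was computed. Leaving out a replicate gave 54 to 62 bound genes in all, 31 to 37 in the large subunit, 23 to 25 in the small subunit and 9 to 10 without a neighbouring start. With the 3919 strongest IDR peaks, 14 small subunit genes were bound and 5 genes without a neighbouring start, the median position was -27 bp, the median signal value 604 and the median percentile 38.3. A distance of 500 bp gave a median position of -19 bp and the canonical transcript alone -26.5 bp. Leaving out a replicate gave -23.5 to -21.5 bp and a percentile of 51.9 to 57.2. Among alternatives chosen after seeing the data, genes with 1 TSS gave -31 bp, genes whose own TSS is nearest to the summit -17.5 bp, and protein-coding neighbours only 19 bound genes, of 34. The SD between replicates of the median position was 1.41 bp, and that position stayed between -186 and -150 bp for other bound genes in these settings. The cause of the moves was not tested, except that stricter peaks are fewer by construction. The TCT match was found in 56 members within 5 bp and in 82 within 25 bp of a TSS. No paired analysis was possible because there was 1 group. Depth is unknown, so an unbound gene may lie below what these lists detect.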
